A study of Mus musculus with 19 samples.

Results

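The 8 genes of ion and water transport in bile duct cells described here were followed across livers of 3 Pkd1 genotypes: Ano1, Cftr, Kcne3, Gabrp, Slc12a2, Slc4a2, Sctr and Aqp1. They were taken by symbol from the deposited table, which holds all 8 members among its 35976 rows. The set was chosen by pathway and selected on genotype results of these mice, among them the fold changes of Ano1, Gabrp and Kcne3 in the comparisons with Homo livers. The genotype differences of the 8 genes are therefore a description and carry no test of their own. Where a member is said to have passed, it lay under an adjusted p of 0.05 in edgeR's quasi-likelihood test over all genes, and nothing more is read from that.

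Livers came from 7 WT, 6 Het and 6 Homo mice, described as littermates, with 1 RNA-seq library per mouse. WT, Het and Homo give the number of mutant Pkd1 alleles, and every group, WT included, carried AAV-Cre, a virus that brings Cre recombinase into cells. All mice were on Western diet plus CCl4, a liver toxin, for 3 months as a model of non-alcoholic steatohepatitis. The labels do not give the deleted part of Pkd1, the promoter that drives Cre, the share of cells reached, or age. Sample titles end in a mouse number of unstated meaning.

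Bile duct cells (cholangiocytes) modify the bile that hepatocytes make by adding chloride, bicarbonate and water. Secretin, a gut hormone, acts on its receptor Sctr, raises cAMP and opens the chloride channel Cftr at the apical membrane, and the chloride is then exchanged for bicarbonate by the anion exchanger Slc4a2. Ano1, a calcium-activated chloride channel, gives a second apical exit, the cotransporter Slc12a2 loads chloride from the blood side, Kcne3 shapes a basolateral potassium channel that keeps up the driving force, and Aqp1 lets water follow. Gabrp is a subunit of a GABA-gated chloride channel of epithelia. In polycystic disease, in which the product of Pkd1 is lost, fluid secretion of this kind fills cysts.

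Each library held between 25.8 and 42.1 M counts (M is the SI prefix mega). The targeted gene Pkd1 had a mean of 405 CPM (SD 38.6, 7 mice) in WT livers, 390 CPM (SD 46.2, 6 mice) in Het livers and 357 CPM (SD 19.7, 6 mice) in Homo livers, where CPM is the count scaled to library size. Homo against WT gave Pkd1 a log2 fold change of -0.18 ± 0.08 (SE, adjusted p = 0.315 in edgeR's quasi-likelihood test). Pancreas genes marked 3 libraries out: the summed level of 9 pancreas markers, among them the enzymes Cela1, Prss2 and Cpa1, was 142 CPM in Het replicate 5, 184 CPM in Homo replicate 1 and 293 CPM in Homo replicate 5, against 1.16 to 3.18 CPM in the other 16 libraries. Amy2a5, a pancreatic amylase on that list, was at 0 in every library. Pancreatic duct cells also use Cftr and Sctr, so results are given with and without these 3 libraries where they rest on them. The labelled tissue held its markers: 8 hepatocyte genes summed to between 15401 and 20776 CPM in every library.

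The members divided into genes with many reads in every liver and genes near the limit of detection. Per kb of exon, the order in WT livers was Slc4a2 (9.04 ± 0.96 CPM per kb, SD, n = 7), Aqp1 (8.44 ± 0.63), Ano1 (3.75 ± 1.32), Kcne3 (1.14 ± 0.47), Slc12a2 (1.12 ± 0.22), Sctr (0.206 ± 0.270), Cftr (0.139 ± 0.042) and Gabrp (0.117 ± 0.149). Neighbours in this order lay within an SD of each other except Aqp1 above Ano1, Ano1 above Kcne3, and Slc12a2 above Sctr. In Het livers the order was the same for the highest 3, with Slc4a2 at a median of 9.60 CPM per kb (n = 6), and Cftr was the lowest at 0.0331 ± 0.0483. In Homo livers Ano1 had the highest mean of the 8 genes, at 9.94 ± 4.26 CPM per kb (n = 6), though its spread covered Slc4a2 (8.73 ± 0.88) and Aqp1 (8.17 ± 0.46). Gabrp moved from the lowest place in WT to the fifth place in Homo, at 1.45 ± 0.87 CPM per kb.

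**Figure D1:**
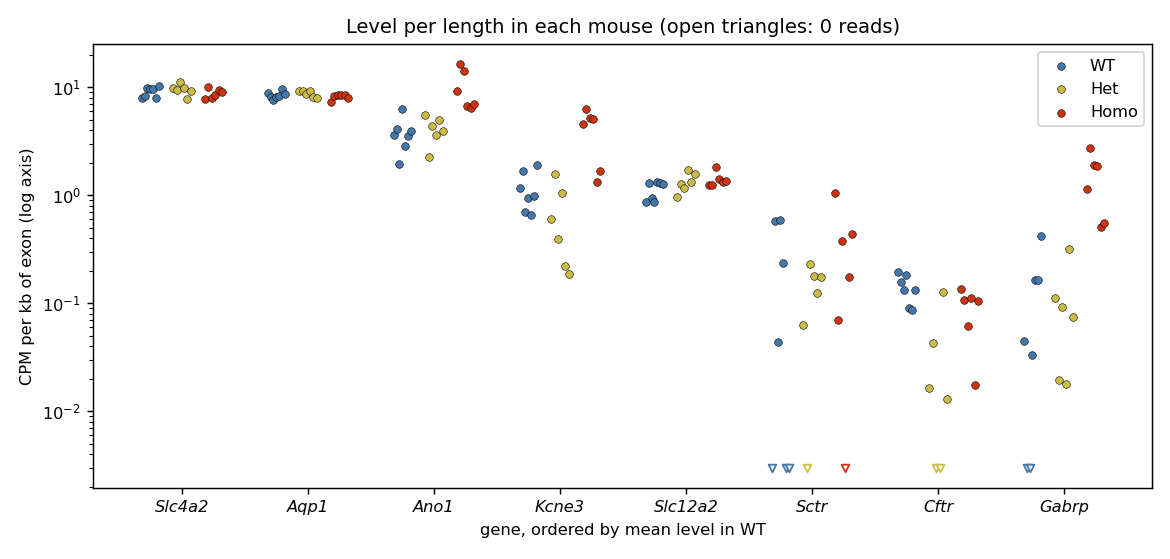
Level of each transport gene in every mouse, as CPM per kb of exon on a log axis, with genes ordered by their WT mean; circles are mice coloured by genotype and open triangles are libraries with 0 reads. Slc4a2 and Aqp1 sit in a narrow band in all genotypes, Homo circles stand above the others for Ano1 and Gabrp, and libraries with 0 reads occur for Sctr, Cftr and Gabrp.

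The chloride exits came first. Ano1 (chromosome 7, 144588549 to 144751974, GRCm38) was at 12.0, 22.5 and 38.9 CPM in WT (lowest, median and highest of 7), 14.2, 25.8 and 34.4 CPM in Het (of 6) and 39.6, 50.6 and 102 CPM in Homo (of 6). Each Homo liver lay above every WT and every Het liver, though by a small margin, since the lowest Homo liver, at 39.6 CPM, stood next to the highest WT liver, at 38.9 CPM. Its log2 fold change was 1.41 ± 0.26 (SE) for Homo against WT, 1.28 ± 0.27 for Homo against Het and 0.13 ± 0.26 for Het against WT. These are differences between livers: more cells that express the gene and more of its RNA per cell cannot be told apart in whole tissue.

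Gabrp (chromosome 11, 33550781 to 33578959) was nearly silent outside Homo livers. It had 0 to 47 reads per WT library, 2 to 38 per Het library and 64 to 323 per Homo library. In CPM this was 0, 0.151 and 1.41 in WT (lowest, median and highest), 0.0601, 0.282 and 1.07 in Het, and 1.72, 5.08 and 9.15 in Homo. All 6 Homo livers exceeded every WT and Het liver, again with the lowest Homo liver close to the highest WT liver. WT replicates 2 and 3 had no read, which allows up to 0.0802 and 0.0880 CPM (3 reads, counting error only). The log2 fold change was 3.63 ± 0.74 for Homo against WT and 3.75 ± 0.79 for Homo against Het, and in Het against WT it was -0.12 ± 0.80. Its size rests on few reads in WT and Het livers.

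Cftr (chromosome 6, 18170687 to 18322768), the cAMP-gated channel, took another course. It was at 0.673, 1.03 and 1.51 CPM in WT (lowest, median and highest), 0, 0.114 and 0.981 CPM in Het and 0.134, 0.818 and 1.04 CPM in Homo. WT and Homo livers overlapped, and 5 of the 6 Het livers, at 0 to 0.331 CPM, lay under every WT liver. The exception was Het replicate 5, at 0.981 CPM, 1 of the 3 libraries with pancreas markers, and the part of those cells in the value was not tested. Het replicates 3 and 4 had no read, which allows up to 0.116 and 0.0901 CPM. The log2 fold change was -2.03 ± 0.66 for Het against WT, -0.64 ± 0.61 for Homo against WT and 1.39 ± 0.68 for Homo against Het, and Cftr did not pass in any of them. Without the 3 libraries, Het against WT was at -3.23 ± 0.59 and Homo against Het at 2.69 ± 0.63, still not past the threshold.

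The potassium channel subunit Kcne3 (chromosome 7, 100176502 to 100184869) was at 1.17, 1.74 and 3.35 CPM in WT (lowest, median and highest), 0.329, 0.885 and 2.78 CPM in Het and 2.34, 8.55 and 11.1 CPM in Homo. Homo replicates 1 to 4 lay between 8.04 and 11.1 CPM, above every other liver, whereas Homo replicates 5 and 6, at 2.34 and 2.97 CPM, fell inside the WT range. The log2 fold change was 2.59 ± 0.48 for Homo against Het, 1.81 ± 0.44 for Homo against WT and -0.78 ± 0.47 for Het against WT. A stretch of 9 exon bases is shared with an antisense transcript, Gm34821, whose reads cannot be told apart without strand.

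The same Homo mice were high or low for these 3 genes. Homo replicate 2 had the highest value of the 6 Homo livers for Ano1, Kcne3 and Gabrp, replicate 3 the next, and replicate 5 the lowest for each. Cftr did not share the order at the top, where replicate 1 was highest, at 1.04 CPM, but its lowest Homo liver was again replicate 5, at 0.134 CPM. Replicate 5 is the library with pancreas markers at 293 CPM, and their part in its values was not tested.

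**Figure D2:**
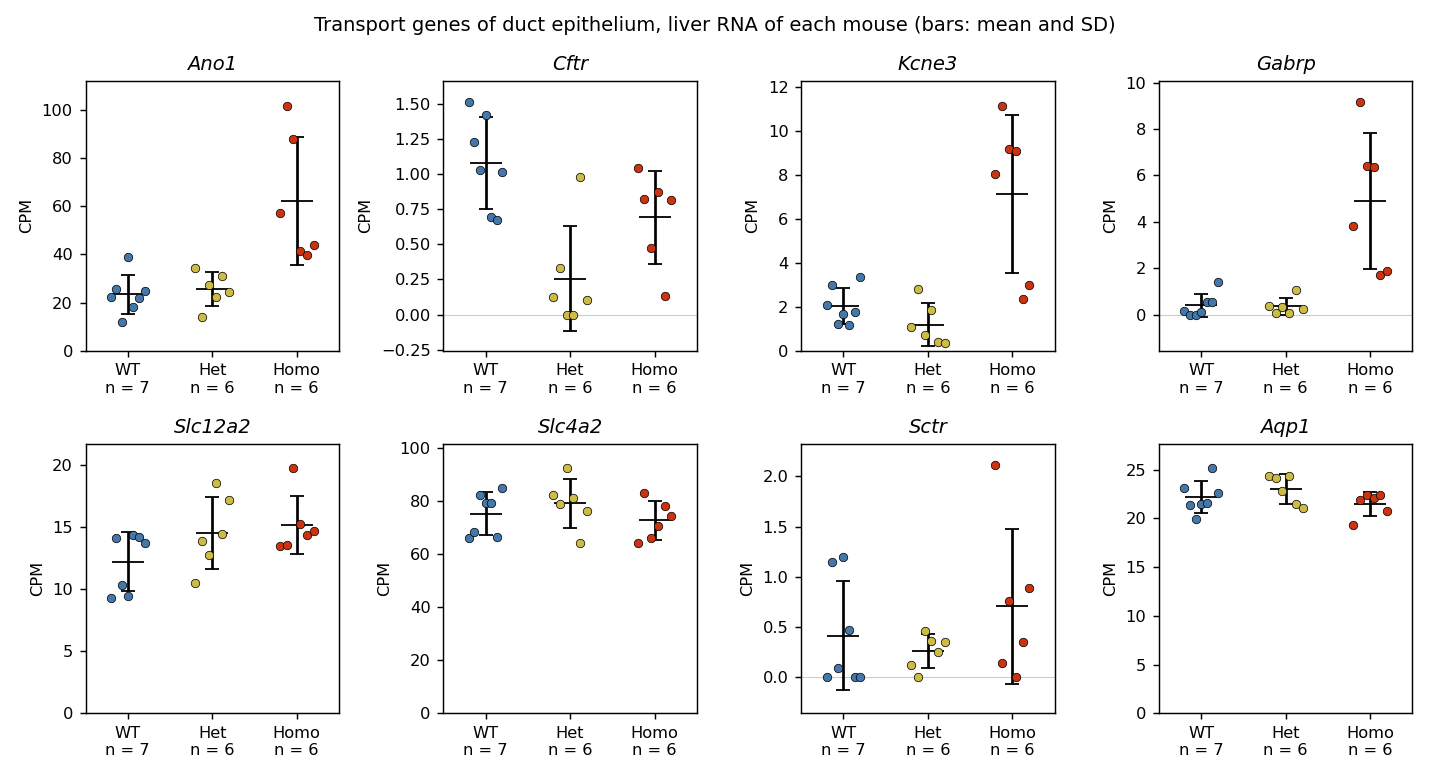
CPM of the 8 genes in each mouse by genotype, 1 panel per gene with its own axis; circles are mice, horizontal marks the mean and bars the SD. All Homo circles lie above WT and Het for Ano1 and Gabrp, 4 of 6 do so for Kcne3, 5 of 6 Het circles lie under WT for Cftr, and Slc12a2, Slc4a2 and Aqp1 overlap between genotypes.

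Because Ano1, Gabrp and Kcne3 were higher together in Homo livers, the stretch before their transcription starts is shown, as 250 bases upstream of each RefSeq start (GRCm38.p6), 5′ to 3′ on the strand of the gene. RefSeq entries matched 6 of the 8 members. Capitals mark GGGCGG, the GC box, searched on both strands.
Ano1, chr7:144738574-144738823, minus strand: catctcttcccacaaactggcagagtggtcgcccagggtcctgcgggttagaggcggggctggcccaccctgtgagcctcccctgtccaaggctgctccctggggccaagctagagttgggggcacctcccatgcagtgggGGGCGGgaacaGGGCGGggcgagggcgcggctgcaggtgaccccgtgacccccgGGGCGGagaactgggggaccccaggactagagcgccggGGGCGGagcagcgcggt
Gabrp, chr11:33578958-33579207, minus strand: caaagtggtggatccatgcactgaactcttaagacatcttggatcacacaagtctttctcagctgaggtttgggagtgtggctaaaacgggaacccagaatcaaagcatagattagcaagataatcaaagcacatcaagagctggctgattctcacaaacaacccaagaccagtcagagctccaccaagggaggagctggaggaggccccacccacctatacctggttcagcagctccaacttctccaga
Kcne3, downstream of its 2 starts, chr7:100178433-100178682, plus strand: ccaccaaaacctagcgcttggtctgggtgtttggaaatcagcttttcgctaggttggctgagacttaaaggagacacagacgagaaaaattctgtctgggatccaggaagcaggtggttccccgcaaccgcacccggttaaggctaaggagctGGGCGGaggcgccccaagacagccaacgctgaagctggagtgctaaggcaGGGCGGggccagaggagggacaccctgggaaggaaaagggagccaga

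The 3 windows differ in make-up. GC made up 72.0% of the Ano1 window, with 4 GC boxes, 58.0% of the Kcne3 window, with 2, and 49.2% of the Gabrp window, with none. The window of the upstream Kcne3 start, not printed, had 46.8% GC and no GC box. Other members' windows, also not printed, held GC boxes too. Cftr had 6 at 76.4% GC, more than Ano1, and Aqp1 had 1 at 62% GC. The 2 Slc4a2 windows, at 69.2% and 61.2% GC, had none. A link between GC boxes and the genotype differences was not tested. Of 32851 promoter windows of that length in the RefSeq table, 32.7% hold a GC box. Further motifs searched on both strands were ATCAAT (ONECUT, in 6.72% of windows), GGAATG (TEAD, 12.6%) and TGACG (part of a cAMP response element, 17.8%). GTTAAT, part of an HNF1 site, was searched as well (6.43%). None of these letters occur in the 3 windows printed.

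The genes of loading and exchange changed less than Ano1 and Gabrp in Homo livers. Slc12a2, the sodium, potassium and chloride cotransporter (chromosome 18, 57878678 to 57946821), was at 9.34, 13.8 and 14.4 CPM in WT (lowest, median and highest), 10.5, 14.2 and 18.5 CPM in Het and 13.5, 14.5 and 19.8 CPM in Homo. The genotypes overlapped, though 4 of 6 Homo livers lay above every WT liver. The log2 fold change was 0.31 ± 0.14 for Homo against WT, 0.25 ± 0.14 for Het against WT and 0.06 ± 0.15 for Homo against Het. WT livers fell into a lower group of replicates 1, 3 and 4, at 9.34 to 10.3 CPM, and a higher group of 4.

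Slc4a2, the chloride and bicarbonate exchanger (chromosome 5, 24423837 to 24440950), was at 66.1, 79.1 and 84.9 CPM in WT, 64.2, 79.9 and 92.2 CPM in Het and 63.9, 72.4 and 83.1 CPM in Homo. The ranges nearly coincided, with log2 fold changes of -0.05 ± 0.09 for Homo against WT, 0.07 ± 0.09 for Het against WT and -0.12 ± 0.09 for Homo against Het. Of its exon bases, 13.7% are shared with Fastk on the other strand, so part of these reads may belong to Fastk.

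Aqp1, the water channel (chromosome 6, 55336432 to 55348555), was the steadiest member, at 19.9, 21.6 and 25.1 CPM in WT, 21.0, 23.5 and 24.4 CPM in Het and 19.3, 22 and 22.4 CPM in Homo. Its log2 fold changes were -0.05 ± 0.06, 0.05 ± 0.06 and -0.10 ± 0.07 for Homo against WT, Het against WT and Homo against Het. Endothelial and red blood cells use Aqp1 too: 10 endothelial markers summed to 549 to 593 CPM in WT and 539 to 618 CPM in Homo, and 8 red cell markers to 40.9 to 57.9 CPM and 37.4 to 48.0 CPM, so both lists overlapped between genotypes.

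Sctr, the secretin receptor (chromosome 1, 120006894 to 120063536), was patchy in every genotype. It had 0, 43, 3, 43, 17, 0 and 0 reads in WT replicates 1 to 7, 4, 0, 12, 12, 9 and 14 reads in Het replicates 1 to 6, and 71, 5, 24, 0, 13 and 37 reads in Homo replicates 1 to 6. The genotypes overlapped, though 3 of 6 Homo livers lay above every Het liver and 1 above every WT liver. The mean was 0.415 CPM (SD 0.544) in the 7 WT livers and 0.260 CPM (SD 0.171) in the 6 Het livers. In the 6 Homo livers it was 0.708 CPM (SD 0.770). In the 3 WT livers with 0 reads up to 0.0918 CPM is allowed. Homo against WT gave a log2 fold change of 0.76 ± 0.98, and 0.10 ± 1.17 without the libraries with pancreas markers, 1 of which, Homo replicate 1, had the most Sctr reads. No difference between genotypes was detectable with these few reads and this spread between mice of 1 genotype.

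**Figure D3:**
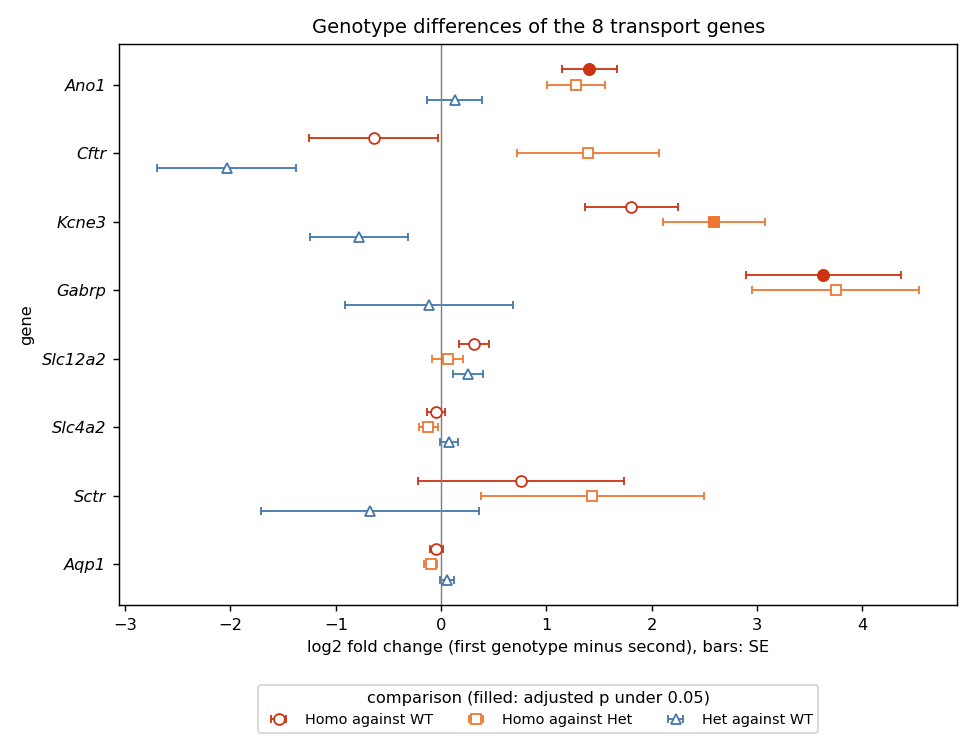
Log2 fold change with its SE for the 8 genes in Homo against WT, Homo against Het and Het against WT; filled marks have an adjusted p under 0.05 in edgeR over all genes. Ano1, Kcne3 and Gabrp lie at 1.28 to 3.75 in both comparisons with Homo. Slc4a2 and Aqp1 lie near 0 in all 3, and Slc12a2 lies between 0.06 and 0.31.

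All 8 members passed the filter on low counts. Gabrp did so mainly through Homo livers, with 6 of 6 at or above the filter level of 0.289 CPM, against 3 of 7 WT and 3 of 6 Het livers. In Homo against WT, 2 members passed as higher, Ano1 and Gabrp, where 0.292% of all 16463 genes tested did so, and none as lower (0.188% of all genes). In Homo against Het 1 member passed as higher, Kcne3, against 0.146% of all genes, and in Het against WT none did with edgeR (0.0243% of all genes in either direction), DESeq2 or limma-voom. At an unadjusted p under 0.05, Cftr did so in Het against WT, against 8.84% of all genes. Members with all Homo livers above all WT livers numbered 2, Ano1 and Gabrp, against 0.528% of all genes, and the same 2 stood above all Het livers, against 0.510%. Since these contrasts helped to choose the members, nothing is read from the counts. The median log2 fold change of the 8 members was 0.54 in Homo against WT, 1.34 in Homo against Het and -0.03 in Het against WT, where the medians of all genes tested were 0.00191, -0.00117 and -0.00428. The 3 comparisons share libraries pairwise, so they are not independent.

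Single mice weighed on these calls. Ano1 kept its Homo against WT call in 18 of 19 fits that each left out 1 library, and lost it without Homo replicate 3. Gabrp lost its call in 7 of 19, without WT replicates 1, 3, 4 or 5 or Homo replicates 2, 3 or 4. Kcne3 lost its Homo against Het call in 8 of 19, without Het replicates 1, 3, 5 or 6 or Homo replicates 1 to 4. Without the libraries with pancreas markers, with limma-voom, without mice 1 to 3 and within mice 14 to 20, Kcne3 did not pass in Homo against Het either. Of 10 alternatives other than the fits without 1 library, Kcne3 passed there in 5. The number of members past the threshold in Homo against WT was 2 without the libraries with pancreas markers, 1 with mouse number as a covariate and 0 without mice 1 to 3, all of them WT. It was 3, with Kcne3 added, with DESeq2 and in the fit of WT and Homo livers alone.

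Other transport genes were compared from 7 lists of channels, exchangers, pumps, aquaporins and secretory signals, 116 genes in all, of which 86 passed the filter. In Homo against WT 1 of the 86 passed as higher, Ezr, and 1 as lower, Car14, and the other 84 did not pass. Of all genes tested, 0.292% passed as higher and 0.188% as lower. In Homo against Het 1 of the 86, Ezr, passed as higher, against 0.146% of all genes. Ezr, or ezrin, ties membrane proteins to the actin cortex. It had a mean of 4.11 CPM (SD 0.98) in the 7 WT livers and of 7.82 CPM (SD 1.40) in the 6 Homo livers. Ezr was higher in all 6 Homo livers than in all 7 WT livers, as were 0.528% of all genes tested. Its log2 fold change was 0.93 ± 0.17 (adjusted p = 0.0115, edgeR quasi-likelihood test), and 0.89 ± 0.17 against Het (adjusted p = 0.0384), where Ezr was at 4.21 ± 0.72 CPM. Ezr lies on chromosome 17, 17.8 Mb from Pkd1, and no member lies on that chromosome. Its Homo against WT call held in all 19 fits without 1 library, but was lost without mice 1 to 3, within mice 8 to 13 and with mouse number as a covariate, as was that of Car14. The Homo against Het call was lost without the libraries with pancreas markers and in 12 of 19 fits, without WT replicates 2, 6 or 7, Het replicates 1, 2, 3, 4 or 6 or Homo replicates 1, 2, 3 or 6.

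Car14, a membrane-bound carbonic anhydrase, which interconverts carbon dioxide and bicarbonate, fell from a mean of 39.1 CPM (SD 7.64) in the 7 WT livers to a median of 23.5 CPM in the 6 Homo livers, a log2 fold change of -0.70 ± 0.15 (adjusted p = 0.0390, edgeR). Het livers had a mean of 31.8 CPM (SD 6.84), 5 of 6 Homo livers lay under every WT liver, and the groups overlapped. The call was lost in 8 of 19 fits without 1 library, namely WT replicates 1, 2, 3 or 7 or Homo replicates 2, 3, 4 or 6. Of its exon bases, 17.5% are shared with Aph1a on the other strand. No gene of the 86 passed in Het against WT with edgeR (none with DESeq2 or limma-voom). At an unadjusted p under 0.05 there were 7 of 86, where 8.84% of all genes were under it.

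By role, the tested genes of each list lay on both sides of 0 in Homo against WT. Among 18 other chloride channels 14 were above 0 and none passed (median 0.09). Clic5 and Clic3, intracellular chloride channel proteins, were at 0.75 ± 0.26 (adjusted p = 0.234) and 1.28 ± 0.49 (adjusted p = 0.277, edgeR). Of 12 potassium channel genes 8 were above 0 (median 0.16), among them Kcnq1, the pore that pairs with Kcne3, at 0.71 ± 0.29 (adjusted p = 0.309). Kcnk6, a background potassium channel, was at -0.39 ± 0.21.

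Of 10 other GABA-A receptor subunits 4 could be tested. Gabre, the epsilon subunit, was at 0.92 ± 0.45 (adjusted p = 0.400, edgeR). Bicarbonate and acid transport had 11 tested genes, 8 above 0 and 1, Car14, lower (median 0.11), with the sodium bicarbonate cotransporter Slc4a7 at 0.14 ± 0.09. The 16 tested genes of the sodium pump and cotransporter control had a median of 0.03 and none passed, with Scnn1a, a sodium channel subunit, at -0.24 ± 0.15 and the potassium and chloride cotransporter Slc12a4 at 0.16 ± 0.08.

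Of the 5 other aquaporins tested none passed. Aqp8, a hepatocyte water channel, had a median of 20.9 CPM in WT livers and of 8.88 CPM in Homo livers (-0.77 ± 0.35, adjusted p = 0.357, edgeR), and Aqp4 at -0.36 ± 0.17. Among 20 receptors and signals 1 was higher, Ezr (median 0.06). Itpr3, the inositol trisphosphate receptor that releases calcium in duct cells, had a mean of 5.20 CPM (SD 0.91) in WT livers and of 7.45 CPM (SD 1.45) in Homo livers (0.52 ± 0.15, adjusted p = 0.153). Over all 86 genes, 59 lay above 0 with a median of 0.08, where 50.3% of all genes tested did so.

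**Figure D4:**
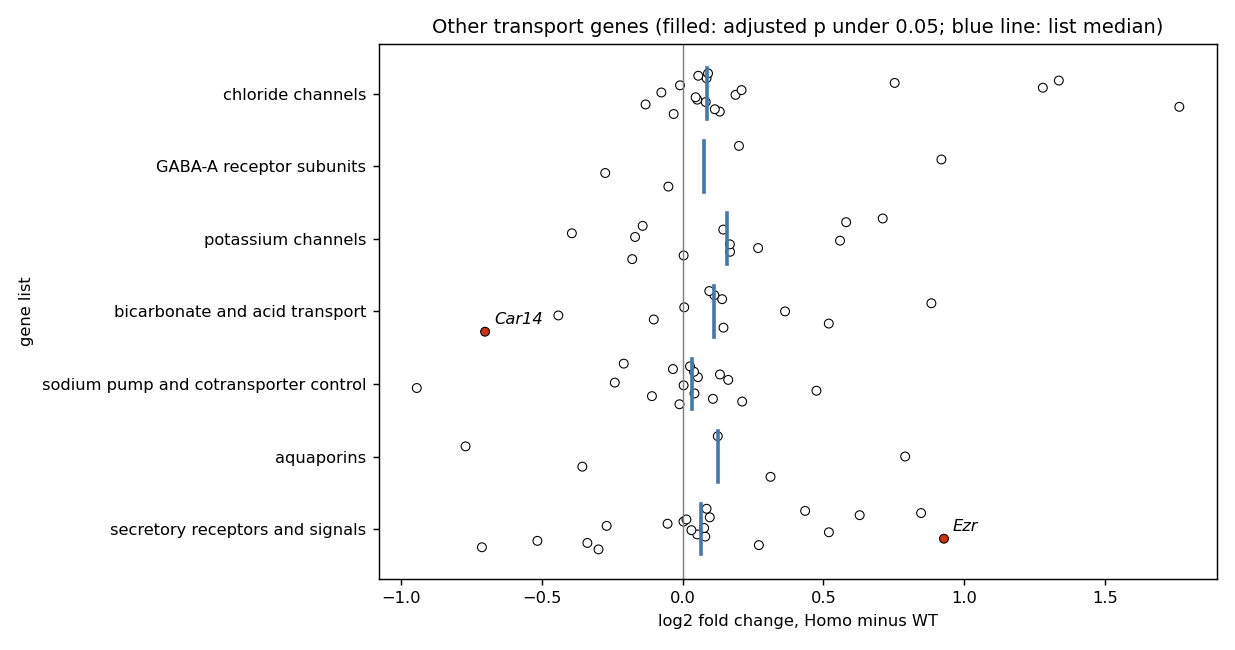
Log2 fold change of Homo against WT for 86 tested transport genes outside the 8, 1 circle per gene in 7 lists; blue lines are list medians and filled circles have an adjusted p under 0.05. The list medians lie between 0.03 and 0.16, and Ezr and Car14 are the only filled circles.

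Duct cell markers moved in the same livers. Of 14 bile duct markers 12 were tested, and 5 rose in Homo against WT: the duct keratins Krt7 (log2 fold change 3.06 ± 0.40, adjusted p = 0.00043, edgeR) and Krt19 (mean 1.19 CPM in WT and 6.76 CPM in Homo livers), and Muc1, Tspan8 and Ddr1. The summed level of the 14 was 171 to 274 CPM in WT (median 185), 165 to 244 in Het (median 193) and 245 to 319 in Homo (median 282), and none of the 14 was at 0 in all libraries. Of all genes tested, 0.292% passed as higher. Of the 12 markers 9 lay above 0 and 3 below, namely Sox9, a duct and progenitor factor (-0.12 ± 0.23), the keratin Krt23 (-0.14 ± 0.42) and the adhesion protein Cdh1 (-0.06 ± 0.19). Mesothelium markers summed to 1.85 to 8.14 CPM in WT and 6.39 to 10.8 CPM in Homo, with 5 of 5 above 0 and none passed. The 6 markers of smooth muscle and interstitial cells of Cajal, which also use Ano1, summed to 54.0 to 85.7 CPM in WT and 57.2 to 68.3 CPM in Homo. The part of any of these cells in the members' differences was not tested.

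Whether members follow duct markers from mouse to mouse inside a genotype does not depend on the genotype differences by which they were chosen. For each mouse the duct keratin score was taken as the mean log2 CPM of Krt7, Krt19 and the adhesion protein Epcam, and score and members were set against their genotype means. Over the 19 mice Ano1 followed the score, with Pearson's r = 0.77 (permutation within genotype, two-sided, p = 0.00043, adjusted over the 8 members 0.00344) and Spearman's rho = 0.78 (permutation p = 0.00035, adjusted 0.0028). Without WT replicates 1 and 3, the mice farthest from the median score, r was 0.77. It was 0.74 without the libraries with pancreas markers (adjusted p = 0.0278).

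Gabrp had r = 0.64 (permutation p = 0.00814, adjusted 0.0326) and rho = 0.57 (permutation p = 0.0267, adjusted 0.107). Without the 2 farthest mice r was 0.57 (permutation, adjusted p = 0.0672), so the call rests on those mice, and it was 0.60 without the libraries with pancreas markers (adjusted p = 0.175). The other 6 members had r between -0.10 and 0.25 (permutation, adjusted p of 0.542 to 0.778) and rho between -0.25 and 0.36 (adjusted p of 0.504 to 0.726). Without the 2 farthest mice their r lay between -0.34 and 0.29. Sctr, Cftr and Gabrp have few reads, which lowers what a correlation can show.

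Kcne3, at r = 0.24 over all mice, had opposite signs inside the genotypes. It was 0.92 in Homo (exact permutation p = 0.00694, n = 6, rho = 0.94), -0.90 in Het (exact p = 0.0111, n = 6, rho = -0.83) and 0.54 in WT (exact p = 0.218, n = 7, rho = 0.46). Adjusted over the 8 members within a genotype, these exact p were 0.0556, 0.0630 and 0.544. Without the 2 mice farthest from the median score r was 0.88, -0.53 and 0.59. For rho in Homo the adjusted exact p was 0.0444 for each of Ano1, Kcne3 and Gabrp, which shared their highest, next and lowest Homo mouse. The difference between genotypes was not tested. Ano1 was at 0.91 in Homo, 0.88 in Het and 0.64 in WT, and Gabrp at 0.91, 0.90 and 0.49, with adjusted exact p of 0.0556 in Homo, 0.0630 in Het and 0.544 in WT for each. With the 2 farthest mice of a genotype left out, Ano1 fell to 0.11 in Het and 0.33 in WT and Gabrp to 0.17 in WT, so those values rest on single mice.

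**Figure D5:**
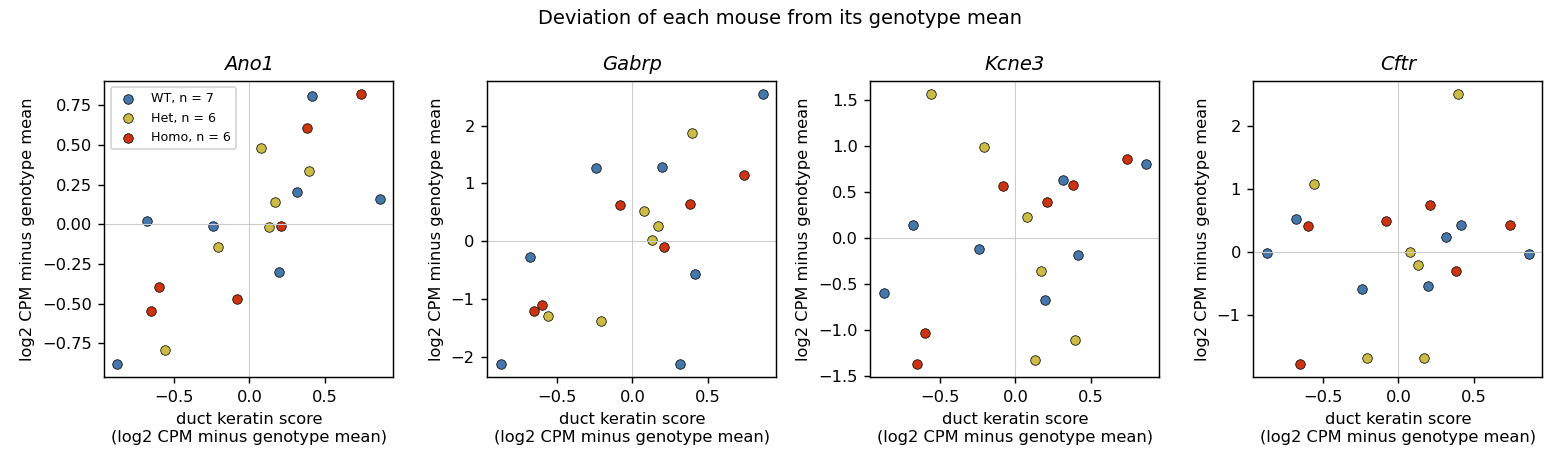
Log2 CPM of Ano1, Gabrp, Kcne3 and Cftr minus the genotype mean (y) against the duct keratin score minus the genotype mean (x), 1 circle per mouse. Circles of all genotypes rise from left to right for Ano1 (r = 0.77) and Gabrp (r = 0.64), while for Kcne3 the Het circles fall and the Homo circles rise, and Cftr shows no slope (r = 0.17).

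The members also differed in how much mice of 1 genotype varied. The within-genotype SD of log2 CPM was 0.52 for Ano1, 0.90 for Kcne3 and 1.40 for Gabrp, above 97.6%, 96.6% and 95.8% of the 500 tested genes nearest to each in mean level. Sctr, with 1.76, lay above 96.4% and Cftr, with 1.08, above 85.2% of their neighbours. Slc12a2 and Slc4a2, at 0.27 and 0.16, lay above 73.4% and 57.2%. Aqp1, at 0.10, lay above only 3.40% of its neighbours, so this water channel was among the steadiest genes of its level.

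The genes whose deviations from the genotype mean were most like the mean of the 8 members were sought among all other tested genes, by Pearson's r over 19 mice, as a description. The 10 closest had r of 0.78 to 0.86. They held 3 genes of duct and other epithelia, Krt19 (0.83), the mucin Muc1 (0.82) and the surface protein Cd24a (0.81), and the laminin receptor Bcam (0.79), beside Pik3c2b (0.86), Gm29868, Pvrig, Rarg, Samhd1 and Aste1. The closest to Gabrp was Dmbt1, a mucin-like protein of epithelia, at 0.86. For Ano1 it was Tnfaip8l2 (0.87), with Bcam (0.77) in the third place, and for Kcne3 it was Mest (0.81). The nearest to Cftr included the potassium channel Kcnj16 (0.78), and the nearest to Aqp1 was Avpi1, an arginine vasopressin-induced gene (0.84).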

How the data were processed

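RNA was measured in 19 mouse livers, 1 library each, prepared with a NuGen Ovation mouse kit, per the labels' protocols. The authors deposited raw counts per gene symbol, whole numbers with no normalization. The submitters' processing notes list STAR 2.7.2b, featureCounts 1.6.4 and GRCm38. Annotation, strand and other settings were not given in the sources used here. Library totals were 25.8 to 42.1 M counts. Each of 51 pairs of libraries of the same genotype differed beyond counting noise (lowest chi-square over its degrees of freedom 22.6). No label says how the mice were batched, so p-values measure the spread between these livers. Of the 35976 rows, 27 carry a date in place of a symbol, and they stayed in the totals.

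Counts were analysed in R 4.3.3 with edgeR 4.0.16: TMM, filterByExpr by genotype (16463 genes) and the quasi-likelihood F test on 1 fit of all 19 libraries, two-sided, with Benjamini-Hochberg adjustment over all genes. The ± after a log2 fold change is its SE, computed from the fold change and the root of F. CPM use TMM library sizes, and log2 CPM a prior count of 2. Levels per kb use merged exons of GENCODE M21 (GRCm38), which also gives the positions. Correlations used 100000 permutations of mice within genotype, Spearman's rho on ranks of the centred values, or, inside 1 genotype, all permutations. The scripts were tested on simulated data.

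The members, lists and tests were chosen with earlier results of these data known. The text names all 8 members, called genes of the other lists and up to 2 more per list, those of lowest p for Homo over WT, and genes with the highest correlation to the members, but some genes that this rule or the lists hold are not reported here. Alternatives were DESeq2 1.42.0, limma-voom (limma 3.58.1), DESeq2 size factors, other filters, 2 genotypes only, each library left out, and mouse number as covariate or split. Leaving out the 3 libraries with at least 100 CPM of pancreas markers was chosen after seeing the data.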

Additional observations from a re-analysis of the deposited data

Results flagged for a closer look

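Among 24 groups (8 genes in 3 genotypes), 4 had 1 mouse set apart from the rest by the gap to its nearest neighbour relative to the range. For normally distributed values chance gives about 1 in 20 groups. Cftr and Gabrp have few reads and values down to 0, so that rate may not hold for them. Of the 4 values, 2 were in Het replicate 5, mouse 19, a library with pancreas markers: Cftr at 0.981 CPM, with the next Het liver at 0.331 CPM, and Gabrp at 1.07 CPM, with the next at 0.378 CPM. The part of those cells in both values was not tested. Gabrp was at 1.41 CPM in WT replicate 7, mouse 13, with the next WT liver at 0.556 CPM, and that library had pancreas markers at 1.85 CPM, inside the range of the other 16. Slc12a2 was at 19.8 CPM in Homo replicate 3, mouse 15, with the next Homo liver at 15.2 CPM.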

How the results depend on the processing

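No paired analysis was possible because the mouse numbers in the titles are unique and replicate numbers were given in accession order. Of 685 log2 fold changes of members under the alternatives, 678 moved by less than the within-genotype SD of log2 CPM and 7 moved further. That SD is a wide measure for genes with few reads, at 1.40 for Gabrp and 1.76 for Sctr. Gabrp in Homo against WT ranged from 2.89 to 4.74 and was not counted as moved. The count therefore says little about such genes. A sign changed in 9 of the 685, none for a value past the threshold: 4 for Gabrp, 1 for Ano1 and 1 for Sctr, all in Het against WT, and 3 for Slc12a2 in Homo against Het. The number of members called in Homo against WT, 2, was 3 with DESeq2 or with only those genotypes fitted, 1 with mouse number as a covariate and 0 without mice 1 to 3 or within mice 8 to 13, and for Homo against Het, 1, it was 3 with DESeq2, 2 with mouse number and 0 with limma-voom, within mice 14 to 20 or without the libraries with pancreas markers. Other transport genes called in Homo against WT, 2, were 0 with mouse number, without mice 1 to 3 or within mice 8 to 13, and in Homo against Het, 1, were 2 with DESeq2 and 0 with no filter, within mice 14 to 20 or without the libraries with pancreas markers. With 1 library left out, members called ranged from 0 to 3 in both comparisons with Homo, and other transport genes from 1 to 2 against WT and from 0 to 1 against Het. The splits by mouse number and the removal of libraries left fewer samples, while the fit with mouse number as a covariate kept every library. The cause of these shifts was not tested.

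Correlations with the duct keratin score lost their call for Ano1 with Epcam in place of the score (0.59), and for Gabrp with Epcam (0.37), Krt7 (0.49), a prior count of 0.5 (0.57), without the 2 farthest mice (0.57) and without the libraries with pancreas markers (0.60). In single genotypes, with 6 or 7 mice, Ano1 was at 0.64 in WT, 0.88 in Het and 0.91 in Homo and Gabrp at 0.49, 0.90 and 0.91, none past the threshold. Signs of Pearson correlations that passed in no fit turned for Kcne3 (-0.094 with Epcam, -0.90 in Het), Slc4a2 (-0.12 with Krt19, -0.30 in Het, -0.077 in Homo), Slc12a2 (-0.061 without mice 1 to 3, -0.060 without the 2 farthest mice, -0.15 in Het), Sctr (-0.071 in Homo), Cftr (-0.046 in WT, -0.20 without the libraries with pancreas markers) and Aqp1 (0.15 with Krt19, 0.079 in WT, 0.046 without those libraries). Cftr, Gabrp and Sctr, with 0 to 60, 0 to 323 and 0 to 71 reads per library, are the members whose values depth limits most.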
